A study of Homo sapiens with 42 samples.

Results

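The regions described are the 43 outer transition regions of the human centromeres, the rows of the deposited count table named with the prefix ct and an arm, out of 2523 regions in all. They were chosen by row name and by no threshold on a measured value, with earlier results of these data known. There were 19 on short arms and 24 on long arms, on 24 chromosomes; 19 chromosomes had both, and the acrocentric chromosomes 13, 14, 15, 21 and 22 had a long-arm region here. A region is called below by chromosome and arm, so that 8p is the short-arm row of chromosome 8 (ct_8_1) and 22q the long-arm row of chromosome 22 (ct_22_103). Coordinates, lengths and bases of these rows were not used here.

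Every library came from KG-1, a human cell line established from acute myelogenous leukaemia. Cells were treated for 1 h with 100 µM etoposide, with 20 µM mitoxantrone or with vehicle, which the labels call no drug. There were 4 replicas for etoposide and 3 for mitoxantrone, each with its own untreated cells. A replica held 6 libraries, a TOP2A pulldown, a TOP2B pulldown and input DNA from untreated and from treated cells, so that there were 42 libraries in 12 groups. No formaldehyde was used, and DNA was sonicated, pulled down with an antibody, treated with TDP2 and cut with BsmAI before sequencing. The study has 1 cell line, the solvent of the vehicle is not named in the labels used here, and the labels do not say whether replicas were separate cultures, so the p-values measure the spread between these libraries, which may be technical.

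Type II topoisomerases pass one DNA duplex through a transient break in another, and stay joined to the broken 5′ ends while they do so. TOP2A is the form of dividing cells and TOP2B is present in dividing and resting cells alike. Etoposide and mitoxantrone are poisons that hold the enzyme on the cut DNA, and both are used against leukaemia; TDP2 is the repair enzyme that frees a 5′ end from the bound enzyme. In the T2T-CHM13 satellite annotation a centromeric transition region is the DNA next to the satellite arrays that is not itself named as a satellite, and the outer one leads from the arrays into the chromosome arm. Such DNA holds segmental duplications and transposable elements, and much of it differs enough between chromosomes for a short read to be placed.

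Libraries held from 552909 to 59639786 reads in all, and the outer transition regions from 15116 reads in the etoposide 3 drug TOP2A library to 1950587 in the mitoxantrone 3 untreated input. Read length was 38 bp in etoposide replica 1, 100 bp in mitoxantrone replica 1 and 50 bp in the others. Reads set aside for low mapping quality made up 21.1% to 68.3% of a library, and which regions lost them is not known. Levels are given as CPM, the reads of a region per 1000000 placed reads, where placed reads are those in any named region plus those in none. Levels of different regions are not per length, since lengths were not used, so an order of levels is an order of read numbers. In the etoposide series the treated and untreated libraries of replicas 3 and 4, which shared a sequencing order, stood apart: across the 43 regions, the deviations of the 2 TOP2A libraries of replica 3 from their group means correlated at -0.89, those of its TOP2B libraries at -0.80, and in replica 4 those of the TOP2B libraries at -0.31 and of the inputs at -0.92. The other 17 pairs lay between 0.37 and 0.99, so results in the etoposide series are also given without replica 3 or 4 where they rest on them.

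The outer transition regions held most of the reads that fell in any named region. Their share was 53.3% to 63.8% with a mean of 60.8% ± 2.41 (SD, n = 42 libraries), although they were 43 of 2523 rows. Of all placed reads they took 4.07% to 4.77%, with a mean of 4.28% ± 0.114 (SD, n = 42). The 6 libraries of mitoxantrone replica 1, the only ones with 100 bp reads, had shares of region reads of 53.3% to 57.5% and lay below all others, of which the lowest was 60.1%. The inner transition regions, which lie between the arrays, had 24.8% to 34.8% of the region reads spread over 328 rows on the acrocentric and 485 on the other chromosomes.

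The region with the most reads in every library was 8p, at 4403 CPM on average and 3763 to 5184 over the 42 libraries. It held 10.3% ± 0.851 (SD, n = 42) of all outer transition reads. The long-arm regions of chromosome 17 (ct_17_31), at 2474 (1247 to 3193), and of chromosome 16 (ct_16_69), at 2129 (1489 to 2560.1), came next. These ranges overlapped each other and not that of 8p, so 8p stood first beyond the spread and the order of 17q and 16q was not settled by it. The regions 18q, 8q, 14q, 19q and 20p followed with means of 2045, 1981, 1714, 1702 and 1684 CPM, and their ranges overlapped as well.

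At the other end, the short-arm region of chromosome 9 (ct_9_1), a chromosome known for its large block of satellite DNA beside the centromere, had 7.53 CPM on average (3.57 to 26.5), from 4 to 349 reads in a library. The short-arm region of Y (ct_Y_1) had 29.8 (10.5 to 53.4) and the long-arm region of chromosome 15 (ct_15_37) 72.8 (36.9 to 93.5). All libraries ranked 9p below 15q, while 9p and Yp overlapped in range. The next, 18p, had 139 and 9q 158 CPM, and the median region 902. All 43 regions had enough reads to be tested, and 40 of them had a mean of at least 1000 reads.

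**Figure D1:**
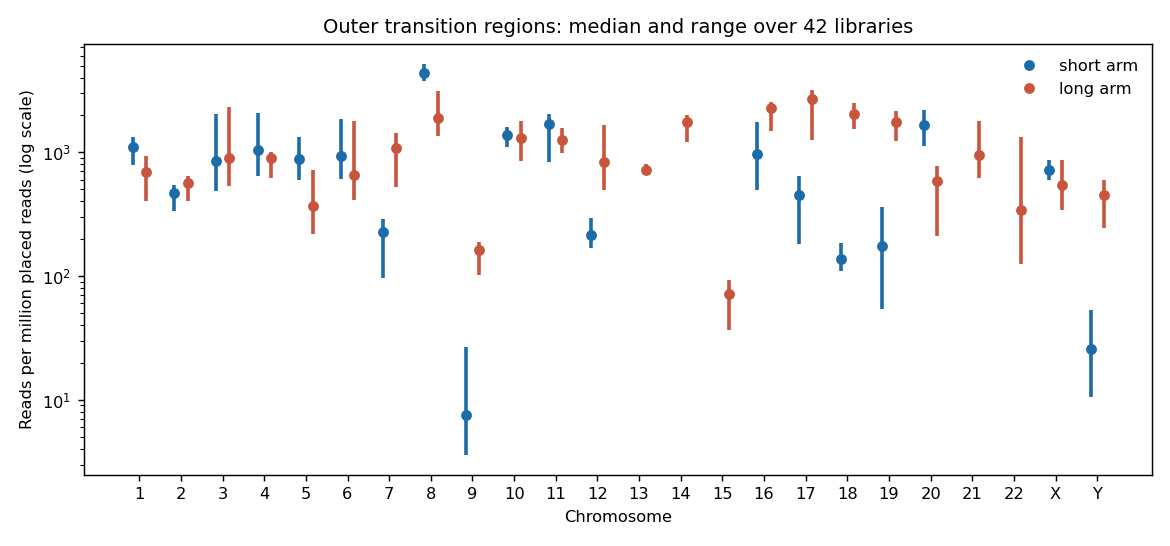
Level of each of the 43 outer transition regions as CPM, on a log axis, by chromosome, with short arms in blue and long arms in red. Points are medians and lines the range over 42 libraries. 8p lies highest, between 3763 and 5184, 9p lies lowest, between 3.57 and 26.5, and the line of 22q is the longest, from 125 to 1336.

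The arms of a chromosome often differed by several fold. The short-arm region had 3.06 times the reads of the long-arm region on chromosome 20, 2.26 times on 8, 2.23 times on 5 and 1.57 times on 1. It had 0.0450 times the long arm's reads on 9, 0.0633 on Y, 0.0683 on 18, 0.1002 on 19, 0.172 on 17, 0.209 on 7 and 0.242 on 12. On chromosome 3 both arms were close, at 0.937, with an SD of 0.04 in the log2 ratio over 42 libraries, and on chromosome 10 the mean ratio was 1.03 with an SD of 0.33. Over all libraries short arms held 41.2% of outer transition reads and long arms 58.8%. The acrocentric long arms held 9.34%, the 8 regions on chromosomes 1, 9, 16 and Y, which carry large heterochromatic blocks, 13.1%, and X with Y 4.52%.

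Within the chromosomes with a region on both arms, the short-arm share of reads lay between 44.8% and 46.7% in every library, with a median of 45.5%. The within-replica log2 change of the short-to-long ratio was -0.01 ± 0.02 (SD, n = 4) in TOP2A, 0.00 ± 0.01 in TOP2B and -0.01 ± 0.02 in input with etoposide, and 0.02 ± 0.07 (n = 3), 0.01 ± 0.02 and -0.01 ± 0.02 with mitoxantrone. Each of these means of summed reads was smaller than its SD. With the mean of single chromosomes in place of summed reads, the etoposide values were 0.01 ± 0.02 (SD, n = 4) in TOP2A, -0.04 ± 0.03 in TOP2B and -0.02 ± 0.06 in input. The mitoxantrone values were then -0.04 ± 0.04 (SD, n = 3), 0.01 ± 0.05 and -0.03 ± 0.04. The sign thus turned in TOP2A for both drugs and in TOP2B for etoposide, where the short-arm share was lower with drug in 4 of 4 replicas on that scale.

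While the total was steady, single regions were not, and they differed widely in how much. The long-arm region of chromosome 22 varied most, with an SD of log2 level of 1.00 over the 42 libraries and a 10.7-fold range. The short-arm regions of chromosome 19 (ct_19_1) and Y came next, with SDs of 0.72 and 0.61 and ranges of 6.70-fold and 5.08-fold. At the other end were the long-arm region of chromosome 13 (ct_13_48), with an SD of 0.07 and a 1.23-fold range, the short-arm region of chromosome 10 (ct_10_1), with 0.12 and 1.46-fold, and 8p, with 0.12 and 1.38-fold. Counting error alone would give an SD of 0.06 for 22q, 0.03 for 13q and 0.32 for 9p, where the measured SD was 0.60.

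For 22q the untreated libraries of etoposide replicas 1 to 4 had 259, 139.7, 332 and 267 CPM in TOP2A, 303, 136, 355 and 288 in TOP2B and 816, 157, 425 and 777 in input. The treated libraries had 444, 212, 177 and 401 in TOP2A, 429, 146, 125 and 199.9 in TOP2B and 999.8, 161, 345 and 252 in input. All 6 libraries of replica 2 were low, at 136 to 212, while in replica 1 the inputs were higher than the pulldowns. In the mitoxantrone series, replicas 1 to 3 had 1336, 252 and 149 in untreated TOP2A, 1194, 445 and 187 in untreated TOP2B and 1156, 618 and 240.2 in untreated input. With mitoxantrone they had 1041, 438 and 277 in TOP2A, 1260.3, 566 and 293 in TOP2B and 951, 665 and 379 in input. Replica 1, with the longest reads, held all 6 of its values above 950, and the groups of treated and untreated libraries overlapped in each kind.

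The short-arm region of chromosome 3 (ct_3_1) went the other way in the same libraries. Untreated etoposide replicas 1 to 4 had 849, 1614, 813 and 831 CPM in TOP2A, 811, 1592, 794 and 794 in TOP2B and 532, 1509, 842 and 618 in input. Treated libraries had 602, 1352, 1974 and 605 in TOP2A, 623, 1523, 2040.4 and 1379 in TOP2B and 482, 1519, 1178 and 1316 in input. Replica 2, where 22q was low, lay between 1352 and 1614 throughout, and in replica 3 the treated pulldowns had the highest 3p levels of all libraries and low 22q levels. In the mitoxantrone series 3p had 645, 1428 and 1552 in untreated TOP2A, 691, 808 and 1473 in TOP2B and 867, 578 and 1376 in input. With drug it had 862, 989 and 865 in TOP2A, 720.0, 672 and 807 in TOP2B and 912, 569 and 843 in input. The long-arm region of the same chromosome (ct_3_8) followed it with a correlation of 0.998 over the 42 libraries.

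The 13q region, by contrast, was level in every group. In etoposide replicas 1 to 4 the TOP2A libraries had 805, 719, 676 and 761 CPM untreated and 740.5, 686, 776 and 674 treated. The TOP2B libraries had 804, 718, 656 and 746 untreated and 763, 709.8, 681 and 702 treated, and the inputs 740.4, 709, 667 and 684 untreated and 703, 713, 661 and 693 treated. All of these values lay between 656 and 805. In mitoxantrone replicas 1 to 3, TOP2A had 726, 713 and 733 untreated and 728, 750.1 and 723 treated. TOP2B had 719.5, 707 and 722 untreated and 689, 755 and 729 treated, and input 759, 687 and 708 untreated and 745, 679.6 and 703 treated. Treated and untreated groups overlapped in each kind of both series.

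Most of the variation lay along 1 axis that ran through the 43 regions. The first principal component of the log2 levels held 82.3% of the variance and the second 7.29%; in the 14 input libraries alone they held 86.4% and 8.83%. The 21 regions on the side of 22q were led by 19p, 16p, 17p, 20q, 17q, 11p, 7p and 7q, and the 22 on the other side by 3p, 3q, Yp, 6q, 5q, 12q, 4p and 9p. Membership of a replica accounted for 54.4% of the variance, replica with treatment for 75.5%, the 12 groups for 20.1% and library kind for 3.35%. Sequencing order accounted for 47.0%, and in the inputs alone for 70.0% against 79.9% for the replica. The libraries of a replica shared an order, so the part of the replica cannot be told apart from that of the order. These factors have unlike numbers of levels, so their percentages are not on 1 footing. A replica's libraries, which also shared an order, resembled each other more than the pulldowns or the inputs did among themselves. As background, chromosomes 16, 17, 19, 20 and 22 are rich in genes and in G and C, and chromosomes 3 to 6 and X are poorer in both. These chromosomes leave out other leaders, 7p, 7q and 11p on the side of 22q and Yp, 12q and 9p on the other. On chromosomes 1, 8, 9, 10, 11 and 18 the arms lay on opposite sides. Those of 18 had small weights, -0.013 and 0.012, and their levels correlated at 0.68. The weight of 13q, counted on the side of 3p, was -0.0006, and 0.0011 in the inputs alone. The base composition of the regions themselves was not measured, and its part in the axis was not tested.

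The log2 ratio of 22q to 3p shows where each replica stood on that axis. Its median was -0.49 in etoposide replica 1 (from -1.71 to 1.05 over 6 libraries), -3.33 in replica 2 (-3.55 to -2.67), -1.53 in replica 3 (-4.02 to -0.99) and -1.55 in replica 4 (-2.79 to 0.33). It was 0.60 in mitoxantrone replica 1 (0.06 to 1.05), -0.55 in replica 2 (-2.50 to 0.23) and -2.08 in replica 3 (-3.38 to -1.15). Mitoxantrone replica 1 did not overlap etoposide replicas 2 and 3 or mitoxantrone replica 3, etoposide replica 2 did not overlap etoposide replica 1 or mitoxantrone replicas 1 and 2, and the other ranges overlapped. Over the 42 libraries, which share replicas, sequencing orders and cells, the ratio correlated at -0.65 with the log2 share of monomeric alpha satellite reads, which ran from 0.303% to 4.13% of region reads, and at 0.06 with the log2 number of outer transition reads; the part of either was not tested.

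The regions most like 22q over the 42 libraries were 16p (Pearson r = 0.954), 10q (0.948) and 19p (0.935), and the most opposed were 12q (-0.863), 6p (-0.840) and 4p (-0.832). For 13q the closest were 18p (0.470), 2q (0.401) and 12p (0.286), so the steadiest region had no close partner. Both arms of a chromosome lay on the same side of the axis on 13 of 19 chromosomes. Their levels correlated with a median of 0.70, above 0.5 on 14 chromosomes, at 0.986 on 6, 0.952 on 5 and 0.950 on 17. On 5 chromosomes the correlation was negative, from -0.26 on 1 and -0.27 on 10 to -0.37 on 8, -0.58 on 9 and -0.84 on 11, where 11p sided with 22q and 11q did not.

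**Figure D2:**
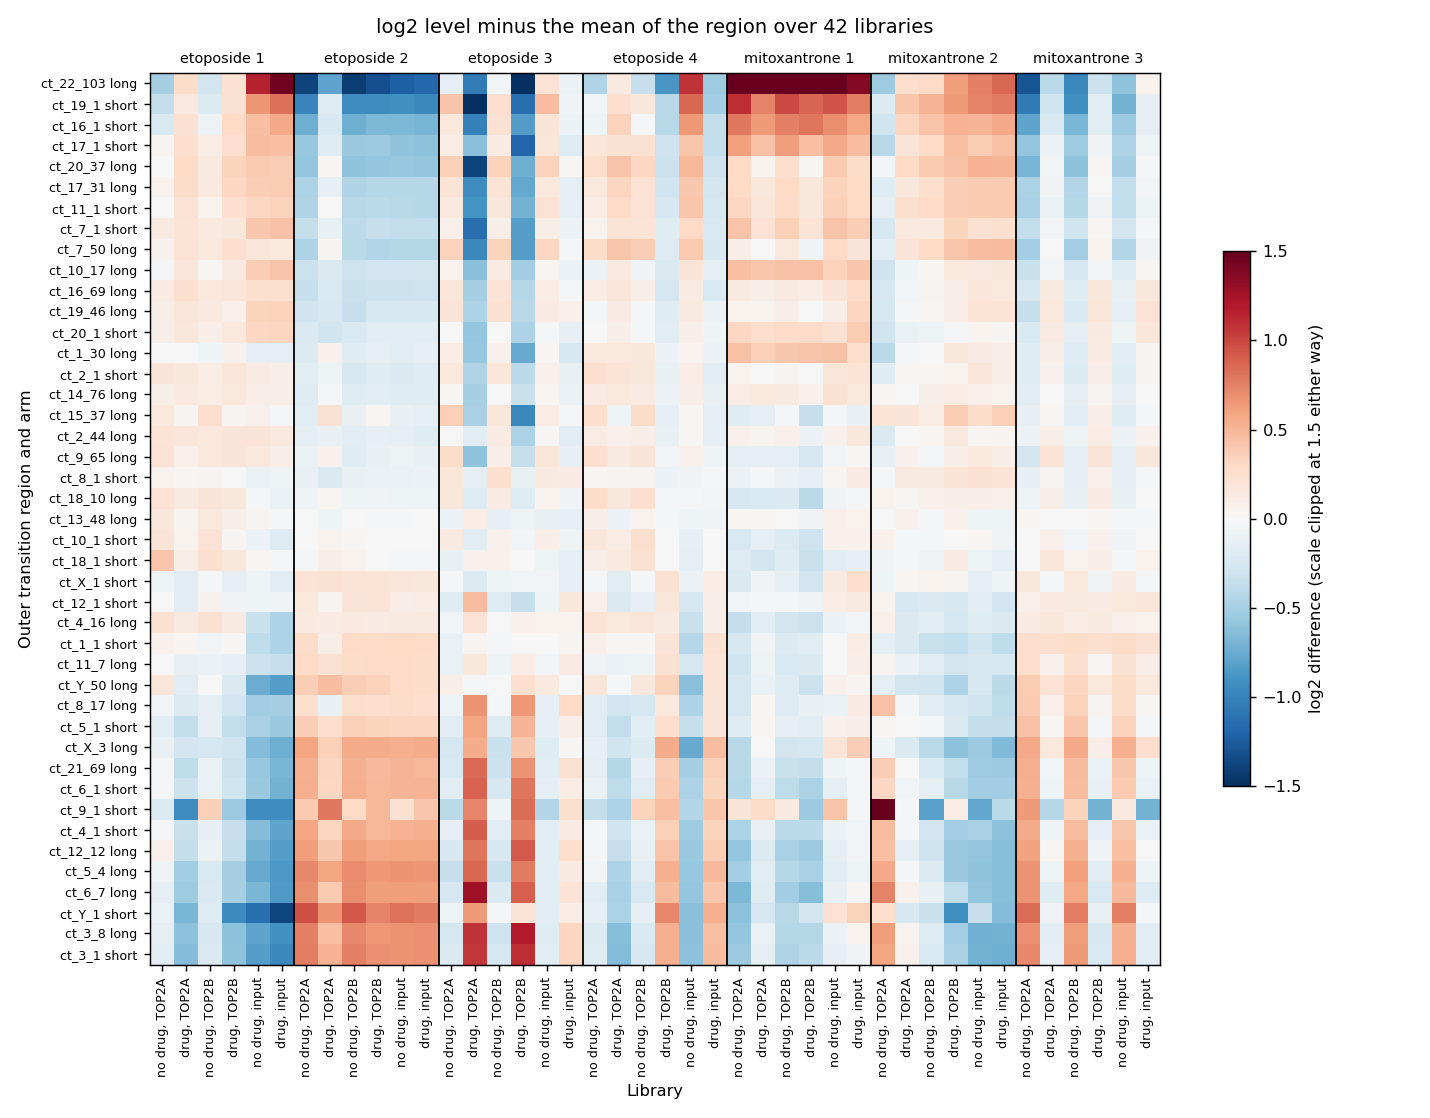
Log2 level of each outer transition region (rows, ordered by their weight on the first component) minus its mean over the 42 libraries (columns, grouped by replica); colour gives the log2 difference, clipped at 1.5 either way. Rows on the side of 22q and rows on the side of 3p take opposite colours, and the colours change mainly between replicas.

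Compared with the rest of the table, the outer transition regions were the steadier ones, but they were also the deeper ones. Their median SD of log2 level was 0.29, against 0.52 for the 77 of 328 inner transition regions of acrocentric chromosomes and 0.48 for the 223 of 485 on other chromosomes with a mean of at least 50 reads, and 0.62 for 547 of all 2523 regions. Among regions with a mean of at least 1000 reads the medians were 0.29 for 40 outer regions, 0.29 and 0.30 for 6 and 26 inner ones and 0.30 for 74 of all. With that floor the class medians were close, but depth was not matched above it, the 74 include the 40 outer regions, and 1 of the inner classes had only 6. Short-arm regions had a median SD of 0.34 and long-arm regions 0.28.

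The question put by the etoposide series was whether the drug moved TOP2A or TOP2B signal at a region. In TOP2A, 0 of 43 outer transition regions were called by edgeR's quasi-likelihood test at an adjusted p under 0.05, against 0.00% of the 1068 regions tested; at an unadjusted p under 0.05 there were 0, against 0.655%. The highest changes were 22q, at 0.45 (SE 0.72) on the log2 scale, and 16p (ct_16_1), at 0.22 (SE 0.51). The lowest were Yp, at -0.15 (SE 0.34), and 15q, at -0.15 (SE 0.32). Each had an adjusted p of 0.999 by that test. Of all members, 31 of 43 regions lay higher with a median log2 change of 0.02, while 476 of the 1068 regions tested lay higher with a median of -0.05; scaled by placed reads instead of TMM, 17 of 43 lay higher.

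Replica by replica, 22q changed in TOP2A by 0.77, 0.60, -0.90 and 0.59 on the log2 scale in etoposide replicas 1 to 4, with a mean of 0.27 ± 0.78 (SD, n = 4). It was higher in 3 of 4 replicas and lower in replica 3, and without replica 3 edgeR's change was 0.81. The TOP2A libraries of 16p had 850.0, 602, 1117 and 946 CPM untreated and 1168, 845, 494 and 1263 treated. Those of 15q had 79.9, 63.7, 92.4 and 85.3 untreated and 73.8, 84.4, 51.4 and 68.0 treated, and those of Yp 25.5, 53.4, 26.1 and 24.7 untreated and 17.05, 43.7, 42.8 and 19.7 treated. For each of the 3 the treated range overlapped the untreated range, and without replica 3 the change of 15q turned to 0.06 and that of 16p was 0.57. No region was higher, and none lower, in all 4 replicas.

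In TOP2B with etoposide, 0 of 43 were called (0.00% of 1068), and 0 had an unadjusted p under 0.05 by edgeR (background 0.749%). The highest changes were both arms of chromosome 3, with 3q at 0.41 (SE 0.29) and 3p at 0.37 (SE 0.29), and the lowest were 7q (ct_7_50), at -0.39 (SE 0.43), and 15q, at -0.38 (SE 0.32), all with an adjusted p of 0.996 by edgeR. For 3q the untreated TOP2B libraries had 851, 1663, 813 and 858 CPM and the treated ones 658, 1588, 2300.3 and 1454. For 7q they had 1132, 770.1, 1286 and 1316 untreated and 1216, 750.5, 576 and 892 treated, and for 15q 85.6, 66.5, 80.6 and 86.7 untreated and 74.0, 73.0, 36.9 and 65.8 treated. Replicas 3 and 4 had higher chromosome 3 values with drug, and replicas 1 and 2 lower ones; without replica 3 the change of 3p was 0.05, that of 7q -0.15 and that of 15q -0.19. Over the members, 13 of 43 regions lay higher with a median log2 change of -0.14, while 581 of the 1068 regions tested lay higher with a median of 0.07; by placed reads 18 of 43 lay higher. In all 4 replicas 1p was higher, and 10p and 18p lower. No background share is known for these, since such regions were not counted among all regions.

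Inputs of treated and untreated cells differed at single regions too, most in replica 4. With etoposide, 0 of 43 regions were called in input (0.00% of 1068; 0 at an unadjusted p under 0.05 by edgeR, background 0.00%), while the highest changes were 3p, at 0.23 (SE 0.29), and 3q, at 0.23 (SE 0.29), and the lowest were 19p, at -0.47 (SE 0.61), and 20q (ct_20_37), at -0.40 (SE 0.50), with adjusted p of 0.996 by edgeR. The 19p inputs had 267, 89.2, 232 and 306 CPM untreated and 299, 86.3, 163 and 117 treated, and the 20q inputs 711, 366, 689 and 767 untreated and 699.7, 363, 551 and 436 treated. In both, replica 4 had the highest untreated value and the second lowest treated one. Without replica 4 the change in input was 0.10 for 3p, -0.09 for 19p and -0.16 for 20q. As a whole, 17 of 43 regions lay higher with a median log2 change of -0.15, while 614 of the 1068 regions tested lay higher with a median of 0.09; by placed reads 21 of 43 lay higher. In all 4 replicas 12p was higher in input and 2q, 9q, 15q, 17p and 20q lower. The low-count region 9p was higher in all 4 only with 0.5 reads added. Without them its replica 1 inputs had 3.61 CPM untreated and 3.60 treated. Regions of this kind were not counted among all regions, so none of these has a background share.

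Set against the input, the etoposide effect in the pulldowns called no region either (0 of 43 for TOP2A and 0 of 43 for TOP2B, 0.00% of 1068 in each; 0 and 0 at an unadjusted p under 0.05 by edgeR, backgrounds 0.468% and 0.00%). For TOP2A minus input, 30 of 43 lay higher by TMM and 14 by placed reads, and for TOP2B minus input 28 and 15, so that 16 and 13 of 43 members had a direction that the scaling set. Within replicas, 2q was higher and 8p lower in all 4 for TOP2A, and 8p, 18p and Yp were lower in all 4 for TOP2B. For these as well, the number among all regions was not counted, so they have no background share.

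Mitoxantrone was tested in 3 replicas, and 0 of 43 regions were called in TOP2A (0.00% of 1416). By edgeR, 1 of 43 had an unadjusted p under 0.05 (background 0.353%), the low-count region 9p, at -1.11 (SE 0.51) with an adjusted p of 0.998 by edgeR. Its untreated TOP2A libraries had 44, 17 and 193 reads, or 7.86, 26.5 and 10.7 CPM, and its treated ones 52, 14 and 82 reads, or 8.31, 6.74 and 5.12 CPM. The untreated replica 2 stood out with 17 reads, and without replica 2 the change was -0.55. Next came 6q (ct_6_7), at -0.44 (SE 0.40), and, on the other side, 7q, at 0.30 (SE 0.37), and 19q (ct_19_46), at 0.30 (SE 0.26). The 6q libraries had 461, 1232 and 1176 untreated and 648, 768 and 648 treated, and the 19q ones 1748, 1402 and 1328 untreated and 1746, 1651 and 1882 treated. In both the groups overlapped. The most abundant region, 8p, had 4113, 4318 and 4036 untreated and 4344, 4835 and 4531 treated, without overlap, and edgeR gave it 0.20 (SE 0.29) with an adjusted p of 0.998. Of the 43, 8p was the only one higher in all 3 replicas, and none was lower in all 3. How many of all regions did so, or had groups without overlap, was not counted. The separation of 8p thus has no background share. Over the members, 27 of 43 regions lay higher with a median log2 change of 0.09, while 662 of the 1416 regions tested lay higher with a median of -0.05; by placed reads 26 of 43 lay higher.

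In TOP2B with mitoxantrone 0 of 43 were called (0.00% of 1416; 0 at an unadjusted p under 0.05 by edgeR, background 0.212%). The lowest changes were Yp, with -0.43 (SE 0.43), and 3q, with -0.37 (SE 0.37), and the highest 9q (ct_9_65), with 0.23 (SE 0.32), and 1q (ct_1_30), with 0.23 (SE 0.23), each with an adjusted p of 0.9998 by edgeR. For 3q the untreated libraries had 753, 886 and 1556 and the treated ones 753, 709 and 852 CPM. For 1q they had 905, 689 and 601 untreated and 925, 772 and 746 treated, higher in all 3 replicas though the groups overlapped. The other regions higher in all 3 were 16p, 20p and 22q, and 9 were lower in all 3, both arms of chromosomes 5, 6 and 12 with 21q, Xp and Yq. Such regions were not counted among all regions, so the 9 have no background share. Of the 43, 27 lay higher with a median of 0.13, against 725 of 1416 and a median of 0.01 for all regions; by placed reads 24 of 43 lay higher.

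In the mitoxantrone inputs 0 of 43 were called (0.00% of 1416; 0 at an unadjusted p under 0.05 by edgeR, background 0.0706%). The lowest changes were Yp, at -0.32 (SE 0.42), and 9p, at -0.32 (SE 0.50), and the highest 19q, at 0.19 (SE 0.26), and 20p (ct_20_1), at 0.14 (SE 0.20). The Yp inputs had 31.7, 21.6 and 46.4 CPM untreated and 34.9, 17.4 and 27.0 treated, and the 20p inputs 1957, 1723 and 1587 untreated and 2176, 1712 and 1882 treated. Each of the 4 changes was smaller than its standard error. For 19q, with 1804, 1937 and 1530.1 untreated and 2099, 1937 and 1955 treated, the treated libraries lay at or above the highest untreated one. In all 3 replicas 2q, 10q and 19q were higher in input, and 13q and Yq lower. Neither this nor the separation of 19q was counted among all regions, so no background share is given. Over the members, 28 of 43 regions lay higher with a median log2 change of 0.03, while 617 of the 1416 regions tested lay higher with a median of -0.05; by placed reads 22 of 43 lay higher. The mitoxantrone effect in a pulldown minus that in input called 0 of 43 for TOP2A and 0 of 43 for TOP2B (0.00% of 1416 in each; 0 members in each at an unadjusted p under 0.05 by edgeR, backgrounds 0.00% and 0.00%). For TOP2B minus input, 30 of 43 lay higher by TMM and 21 by placed reads. Within replicas, 1p and 1q were higher in all 3 for TOP2A minus input. For TOP2B minus input 1q, 16p and 19p were higher in all 3, and 13 were lower, both arms of chromosomes 3, 5, 6 and X with 4p, 11q, 12q, 21q and Yq. These directions are on the CPM scale, and many of the regions move together along the axis. Such regions were not counted among all regions, so the 13 have no background share and are no result about the class.

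**Figure D3:**
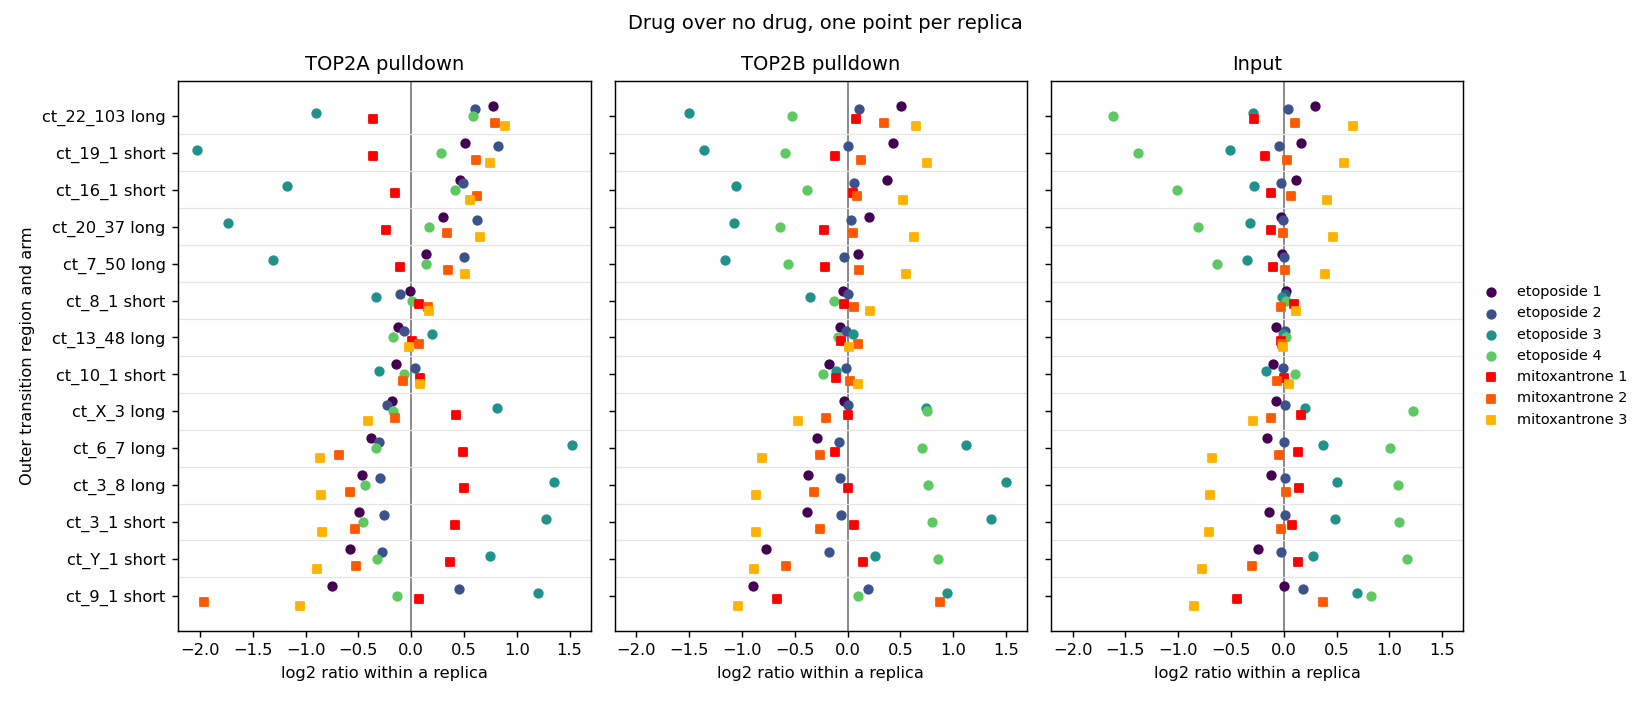
Within-replica log2 change with drug (drug minus no drug, on the CPM scale, with 0.5 added to each read count) for 14 outer transition regions in TOP2A, TOP2B and input, 1 point per replica (7 replicas). The regions from 22q to 3p are in the order of their weights on the axis. Yp and 9p stand last, although their weights were less negative than that of 3p. In etoposide replica 3 the TOP2B points of 22q and 3p lie on opposite sides of 0, at -1.501 and 1.36, as do the input points of replica 4, at -1.62 and 1.09; single points of 19p and 9p in TOP2A reach -2.03 and -1.96, and those of 8p, 13q and 10p run from -0.35 to 0.22.

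Over both drugs, no region moved the same way in all 7 replicas in TOP2A, in TOP2B or in input. The spread of changes within a replica differed widely between replicas. In TOP2A the SD over the 43 regions was 0.30, 0.29, 0.92 and 0.23 in etoposide replicas 1 to 4 and 0.22, 0.48 and 0.51 in mitoxantrone replicas 1 to 3. In TOP2B it was 0.26, 0.06, 0.84 and 0.45 in the etoposide replicas and 0.13, 0.23 and 0.49 in the mitoxantrone replicas, and in input 0.09, 0.03, 0.29 and 0.72, and 0.13, 0.09 and 0.40. Input thus had a smaller spread than TOP2A in every replica but etoposide 4, where it had the largest of the 3 kinds. For 22q the 7 changes in TOP2B were 0.50, 0.10, -1.501, -0.53, 0.08, 0.35 and 0.65, and in input 0.29, 0.04, -0.30, -1.62, -0.28, 0.10 and 0.66. For 3p they were -0.49, -0.25, 1.28, -0.46, 0.42, -0.53 and -0.84 in TOP2A, -0.38, -0.06, 1.36, 0.80, 0.06, -0.26 and -0.87 in TOP2B and -0.14, 0.01, 0.48, 1.09, 0.07, -0.02 and -0.71 in input. The signs were opposite to those of 22q except in TOP2B of mitoxantrone replica 1 and in input of etoposide replica 2.

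With all 7 replicas in 1 fit and the replica as a block, 0 of 43 were called for either drug in TOP2A (0.00% of 1232; 0 at an unadjusted p under 0.05 by edgeR, background 2.60%), in TOP2B (0.00%; 0, background 0.649%) or in input (0.00%; 0, background 0.325%). In TOP2A the ends were 22q at 0.29 (SE 0.30) and 16p at 0.18 (SE 0.22), and 9p at -0.46 (SE 0.28) and Yp at -0.26 (SE 0.18). In TOP2B they were 3q at 0.09 (SE 0.19) and Xq (ct_X_3) at 0.10 (SE 0.12), and 9p at -0.18 (SE 0.27) and Yp at -0.17 (SE 0.18). In input they were Xq at 0.06 (SE 0.12) and 8q (ct_8_17) at 0.04 (SE 0.09), and 22q at -0.23 (SE 0.29) and 19p at -0.27 (SE 0.28). The smallest adjusted p of a member among the 3 was 0.994 by edgeR. TMM and placed reads gave 8 and 23 of 43 higher in input and 14 and 19 in TOP2A, so no direction is given for the class there.

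When the drug effect of the input was taken from that of the pulldown, the fit over all 7 replicas called 0 of 43 for TOP2A and 0 for TOP2B (0.00% of 1232 in each; unadjusted backgrounds 0.325% and 0.0812%, 0 members in each by edgeR). For TOP2A the largest values were 22q at 0.52 (SE 0.42) and 19p at 0.41 (SE 0.40), and the lowest 9p at -0.43 (SE 0.38) and Yp at -0.21 (SE 0.26). Leaving out etoposide replica 4 took 22q to 0.15, and leaving out mitoxantrone replica 2 took 9p to -0.13. For TOP2A minus input 28 of 43 lay higher by TMM and 19 by placed reads, and for TOP2B minus input 39 and 7, so that the scaling set the direction of 9 and 32 of 43 members.

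The share of region reads taken by the outer transition regions as a class was compared between treated and untreated libraries. Within replicas its log2 ratio of drug to no drug was 0.00 ± 0.03 (SD, n = 7 replicas; higher in 3 of 7) in TOP2A, 0.00 ± 0.03 (3 of 7) in TOP2B and 0.00 ± 0.01 (4 of 7) in input. Pulldown against input without drug it was 0.02 ± 0.04 (5 of 7) for TOP2A and 0.01 ± 0.03 (5 of 7) for TOP2B. None of these means exceeded its SD. As a share of placed reads the ratio of drug to no drug was -0.0027 ± 0.025 (SD, n = 7; higher in 1 of 7) in TOP2A, -0.012 ± 0.019 (1 of 7) in TOP2B and 0.0058 ± 0.026 (3 of 7) in input. On that scale the 4 etoposide replicas were all lower with drug in both pulldowns, by a mean of -0.012 ± 0.0076 (SD, n = 4) in TOP2A and -0.0081 ± 0.0057 in TOP2B, means larger than their SD. Their etoposide inputs had a mean of 0.0069 ± 0.027. With the change of the input subtracted, the etoposide means were -0.019 ± 0.029 (SD, n = 4) in TOP2A and -0.015 ± 0.023 in TOP2B. As a share of region reads, without that subtraction, they were 0.0047 ± 0.035 in TOP2A and 0.0078 ± 0.024 in TOP2B. Each of these pulldown means was smaller than its SD.

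A pulldown differs from its input where the antibody brings down more or fewer fragments. In untreated cells, with all 7 replicas and the replica as a block, 0 of 43 regions were called in TOP2A against input (0.00% of 1232), and 1 of 43 had an unadjusted p under 0.05 by edgeR, a share of members below the 8.93% of all regions. That region was 22q, at -0.86 (SE 0.30) or 0.549-fold, with an adjusted p of 0.293 by edgeR, the smallest adjusted p of any member in the 27 comparisons. The 7 within-replica values were -1.65, -0.16, -0.35, -1.54, 0.21, -1.29 and -0.68, lower in TOP2A in 6 of 7, with a mean of -0.78 ± 0.72. Etoposide replicas 1 and 4 and mitoxantrone replica 2 lay lower by more than 1 log2 unit and the others by less or not at all; leaving out 1 replica at a time gave -1.03 to -0.64.

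The next lowest value in TOP2A was 19p, at -0.52 (SE 0.28) with an adjusted p of 0.64 by edgeR. Its untreated TOP2A libraries had 131, 84.6, 226 and 164 CPM in the etoposide series and 363, 146 and 81.1 in the mitoxantrone series, and its inputs 267, 89.2, 232 and 306 in the etoposide and 324, 283 and 102.8 in the mitoxantrone series. Input was higher in 6 of 7 replicas, all but mitoxantrone replica 1. The highest were 9p, at 0.50 (SE 0.26) with an adjusted p of 0.607 by edgeR, which became 0.20 without mitoxantrone replica 2, and 3p, at 0.24 (SE 0.18). The short-arm region of chromosome 11 (ct_11_1) was the one region lower in TOP2A than in input in all 7 replicas, by -0.30, -0.04, -0.07, -0.30, -0.04, -0.53 and -0.11, with a mean of -0.20 ± 0.19. It was lower in 7 of 7 under TMM too, and in 6 of 7 when scaled by region reads or by outer transition reads. How many of all regions lay on 1 side in all 7 replicas was not counted, here or in the later comparisons.

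TOP2B against input gave the same regions at its ends. Of the 43, 0 were called (0.00% of 1232) and 1 had an unadjusted p under 0.05 by edgeR (background 4.79%), again 22q, at -0.72 (SE 0.30) with an adjusted p of 0.886 by edgeR. Its within-replica values were -1.43, -0.20, -0.26, -1.43, 0.05, -0.47 and -0.36, lower in 6 of 7. The others at the ends were 19p at -0.42 (SE 0.28), 3p at 0.09 (SE 0.18) and 9p at 0.28 (SE 0.26). Both comparisons used the same input libraries, so their likeness is no independent result. In all 7 replicas 11p (mean -0.11 ± 0.09) and 7p (ct_7_1, mean -0.08 ± 0.09) were lower in TOP2B than in input; under the other scalings 11p was lower in 5 to 6 of 7 and 7p in 6 to 7. By TMM, 16 of 43 members lay higher in TOP2A and 15 in TOP2B than in input, and by placed reads 23 and 27.

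**Figure D4:**
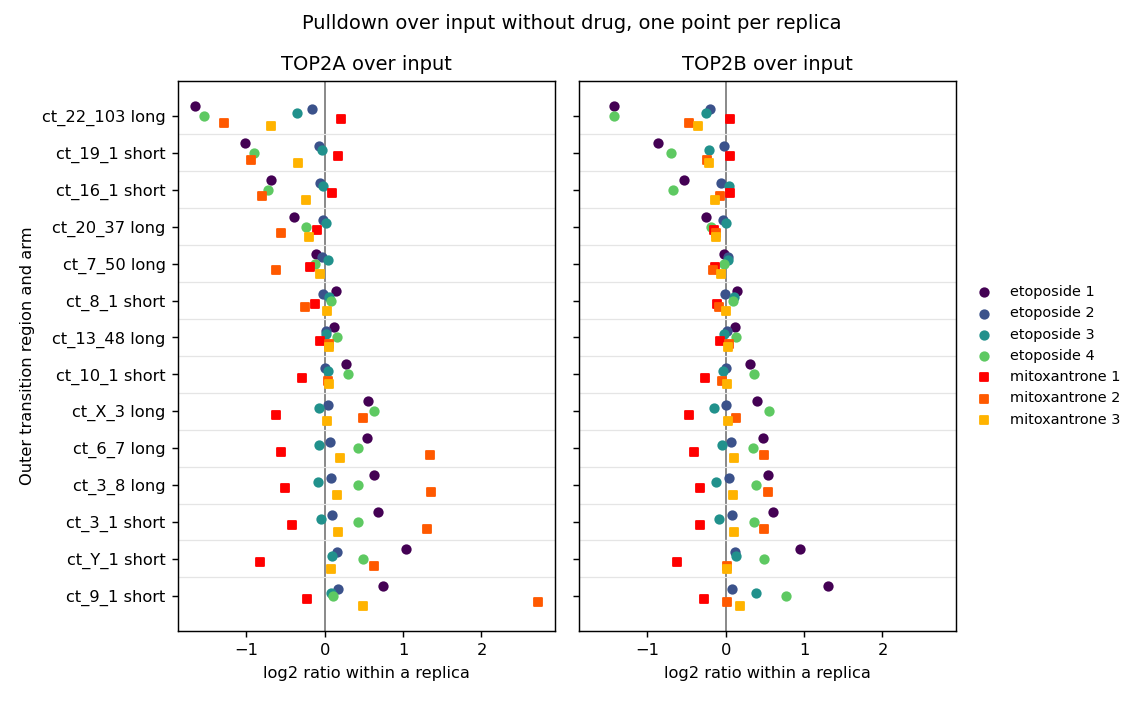
Within-replica log2 difference of TOP2A and of TOP2B pulldowns from input in untreated cells (on the CPM scale, with 0.5 added to each read count) for 14 outer transition regions, 1 point per replica (7 replicas). For 22q the points lie below 0 in 6 of 7 replicas, from -1.65 to 0.21 in TOP2A and from -1.43 to 0.05 in TOP2B, and the mitoxantrone 1 point of 3p lies below 0 where most others lie above.

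No difference between TOP2A and TOP2B pulldowns was called at these regions in untreated cells. Of the 43, 0 were called (0.00% of 1232; 0 at an unadjusted p under 0.05 by edgeR, background 0.0812%), and edgeR's changes ran from -0.15 to 0.23 on the log2 scale with a median of 0.00. The median standard error was 0.14. Within replicas 13q was higher in TOP2A in all 7, by a mean of 0.02 ± 0.01, and 17p (ct_17_1) lower in all 7, by -0.13 ± 0.25. Most of the 17p mean came from mitoxantrone replica 2, with 310 CPM in TOP2A, from 199 reads, and 505 in TOP2B. The next widest pair was 426 and 447 CPM in etoposide replica 1, and in etoposide replica 3 the values were 447 and 450. The direction of 13q held in 4 to 6 of 7 replicas under the other scalings, and that of 17p in 6 to 7.

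With drug, pulldowns and inputs were compared within each series. Under etoposide 0 of 43 were called in TOP2A against input (0.00% of 1068; 0 at an unadjusted p under 0.05 by edgeR, background 2.53%), in TOP2B against input (0.00%; 0, background 1.03%) and in TOP2A against TOP2B (0.00%; 0, background 1.97%). The lowest values were 22q, at -0.58 (SE 0.72) in TOP2A and -1.08 (SE 0.73) in TOP2B, and 19p, at -0.17 (SE 0.61) and -0.53 (SE 0.61). The highest were Yq (ct_Y_50), at 0.20 (SE 0.16), and 4q (ct_4_16), at 0.28 (SE 0.20), in TOP2A, and 3p, at 0.29 (SE 0.29), and 3q, at 0.30 (SE 0.29), in TOP2B. The treated Yq libraries had 391, 599.8, 425 and 429 CPM in TOP2A and 245, 529, 437 and 504 in input. For 4q they had 942, 931, 993 and 959 in TOP2A and 620.3, 938, 891 and 909.7 in input. In replica 1 the input of 4q lay below all the others, and the remaining values overlapped. Over all members, 33 of 43 lay higher in TOP2A than in input by TMM and 27 by placed reads.

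Under mitoxantrone 0 of 43 were called in TOP2A against input (0.00% of 1416; 0 at an unadjusted p under 0.05 by edgeR, background 0.212%), in TOP2B against input (0.00%; 0, background 0.00%) and in TOP2A against TOP2B (0.00%; 0, background 0.00%). The ends in TOP2A were 22q at -0.27 (SE 0.74) and 19p at -0.23 (SE 0.55), and 3p at 0.26 (SE 0.37) and 9p at 0.30 (SE 0.50). In TOP2B they were Yp at -0.26 (SE 0.43) and Xq at -0.19 (SE 0.34), and 18p (ct_18_1) at 0.10 (SE 0.32) and 1q at 0.14 (SE 0.23). The treated 18p libraries had 109.6, 152 and 147 CPM in TOP2B and 128, 126 and 144 in input, and the Xq ones 479, 376 and 617 in TOP2B and 741, 363 and 682 in input. By TMM 15 of 43 lay higher in TOP2B than in input and by placed reads 6, and for TOP2A against TOP2B 18 and 23. Over the treated libraries of both series, 22q was lower in TOP2B than in input in 6 of 7 replicas and in TOP2A in 4 of 7. In all 7, 16q (mean -0.10 ± 0.14) and 19q (mean -0.19 ± 0.18) were lower in TOP2B than in input and 4q was higher in TOP2A than in TOP2B (mean 0.06 ± 0.07). Under the other scalings these held in 6 to 7 replicas for 16q and 19q, and in 4 to 7 for 4q.

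The drugs were used at different doses, 100 µM and 20 µM, against separate untreated cells, so a difference between their effects is one between these treatments as given. The etoposide effect minus the mitoxantrone effect called 0 of 43 in TOP2A (0.00% of 1372; 0 at an unadjusted p under 0.05 by edgeR, background 0.437%), in TOP2B (0.00%; 0, background 0.729%) and in input (0.00%; 0, background 0.00%). In TOP2A the ends were 9p at 1.19 (SE 0.57) and 6q at 0.53 (SE 0.53), and 9q at -0.55 (SE 0.52) and 19q at -0.41 (SE 0.52). In TOP2B they were 3q at 0.79 (SE 0.53) and 3p at 0.73 (SE 0.53), and 7q at -0.61 (SE 0.64) and 15q at -0.59 (SE 0.56). The 3p difference was 0.42 without etoposide replica 3 and 0.41 without mitoxantrone replica 3. The median standard error of a member was 0.50 in TOP2A in this fit of 12 groups, 0.34 when scaled by placed reads and 0.28 with the replica as a block, and 0 of 43 were called by each.

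What the design could resolve differed between fits. The median standard error of a member's log2 change was 0.29 in the etoposide series, 0.32 in the mitoxantrone series and 0.14 in the 7-replica fit for comparisons without a subtraction of input. The series fits held no replica block and the 7-replica fit did. With the block, the median for the drug effect in TOP2A was 0.19 with etoposide and 0.18 with mitoxantrone. Without it, the 7-replica fit gave 0.24 for either drug in TOP2A. The median biological coefficient of variation over the members was 0.305 and 0.314 in the series fits without the block and 0.180 in the 7-replica fit with it. Over all regions tested it was 0.527, 0.638 and 0.322. DESeq2 and limma's voom also called 0 of 43 in each of the 27 comparisons. At an unadjusted p under 0.05 DESeq2 had 1 of 43 in TOP2A and 1 in TOP2B against input without drug, against 11.6% and 6.25% of all regions, and 1 and 1 under etoposide, against 3.37% and 2.06%. The voom fit, which holds the replica as a block, had 3 of 43 for etoposide in input (6.65% of all regions), 8 for etoposide in TOP2A minus input (11.9%), 1 for TOP2A against input without drug (4.63%) and 12 for the difference between the drugs in input (7.73%). With the replica block edgeR had 1 of 43 for TOP2B against input under etoposide (2.72%), 1 for mitoxantrone in TOP2A (1.55%) and 3 for the difference between the drugs in TOP2B (5.39%). The 8 and the 12 by voom lay furthest above the shares of all regions, and of the other counts some lay slightly above and some below. Many members move together along 1 axis, so they are not that many separate results. None of these members was called after adjustment.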

How the data were processed

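What was measured is the number of sequenced reads in each named centromeric or satellite region in 42 libraries. The submitters' processing notes name Trimmomatic 0.36 (a read trimmer), BWA 0.7.17 (an aligner), HTSeq with the version string 2.7.13 (a read counter) and the build T2T-CHM13. The deposited values are raw read counts with no normalization; 5 tally rows (no feature, ambiguous, low quality and the like) stayed out of library sizes and tests. No source used here states the mapping quality demanded or whether single reads or pairs were counted.

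For description, counts were divided by placed reads (region reads plus no-feature reads), given per 1000000 (CPM); for log2 values 0.5 reads were added to each count first. Within-replica ratios compare libraries of 1 replica. For tests, edgeR 4.0.16 in R 4.3.3 (quasi-likelihood, TMM, filterByExpr with a minimum count of 10) was fitted to all regions, and two-sided p-values were adjusted over all regions tested (Benjamini-Hochberg, threshold 0.05). The etoposide series (24 libraries, 1068 regions tested) and the mitoxantrone series (18, 1416) were fitted on their groups; comparisons over 7 replicas (42, 1232) held the replica as a block; the difference between the drugs (42, 1372) was fitted on 12 groups. All 43 outer transition regions passed the filter in each fit. The effective size by TMM differed from placed reads by -0.59 to 0.69 log2 between libraries, which moves all members of a library together, so counts of members in 1 direction are given by both scalings where they differ. The scripts were tested on simulated data with known changes. Those changes were larger than any edgeR change given here, and the simulated libraries held no replica effect. The simulation thus does not show what size of change could be found in these data.

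Alternatives were DESeq2 1.42.0, limma 3.58.1 (voom with quality weights and the replica as a block), the replica block or its removal, other library sizes, other low-count filters and leaving out each replica. The replica labels pair the libraries of a replica, which also shared 1 of 5 sequencing orders; across the 43 regions, 17 of 21 pairs of treated and untreated libraries had deviations from the group means that correlated above 0.1, from -0.92 to 0.99, and 15 of 21 correlated best with their own number. Among 54 pairs of libraries of 1 group, 0 held identical counts, and the lowest chi-square per degree of freedom was 4.80.

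Regions named with values were set by rule: the 3 highest and 3 lowest in mean level, the 3 most and 3 least variable, any called, and the 2 at each end of the drug and pulldown-against-input comparisons, with a mean of at least 50 reads (10 for levels). Partners of 22q and 13q are the 3 highest correlations. For the drug effects of each series, and for comparisons over 7 replicas, regions moving 1 way in every replica were also named, chosen after their values were seen. How many of all regions did so was not counted. The members and lists were chosen with earlier results of these data known. Sequences and positions of the regions were not used here.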

Additional observations from a re-analysis of the deposited data

Results flagged for a closer look

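Single libraries that stood apart from the other 3 of their group were sought in 168 sets of 4 libraries (Dixon's test at 95%), and 19 were found; chance gives about 1 in 20 sets. Of 75 pairs of drug effects compared between the series, 0 had every replica of one series on one side of 0 and every replica of the other on the opposite side.

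Etoposide replica 2 accounts for 12 of them, all in its untreated pulldowns. In TOP2A it had 1614 CPM at 3p (the others 813 to 849), 1698 at 3q (839 to 908), 1193 at 6q (619.7 to 663), 863 at Xq (481 to 533), 53.4 at Yp (24.7 to 26.1) and 1659 at 16q (2282 to 2393). In TOP2B it had 1592 at 3p (794 to 811), 1663 at 3q (813 to 858), 1194 at 6q (627 to 632), 843 at Xq (456 to 499.7), 52.1 at Yp (24.01 to 26.9) and 1757 at 17q (2653 to 2806). These regions all lie on the axis described above, 3p, 3q, 6q, Xq and Yp on the side where replica 2 is high, and 16q and 17q on the other.

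In the treated input of etoposide replica 1, the share of placed reads in outer transition regions was 4.07% (the others 4.27% to 4.29%), with 620.3 CPM at 4q (891 to 938) and 1369 at 8q (2216 to 2389). The treated TOP2A library of etoposide replica 3, the shallowest of all, had 3098 at 8q (1591 to 1792) and 102.7 at 9q (164 to 171). The treated TOP2B library of replica 1 had 156 at 18p (138 to 139), and the untreated TOP2B library of replica 3 had 6.55 at 9p (8.46 to 8.79).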

How the results depend on the processing

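No outer transition region was called in any of the 27 comparisons under any setting tried, 208 of 208 settings and 133 of 133 fits without 1 replica. In particular the replicate block, added to the 19 comparisons fitted without it, called 0 members, also when scaled by outer transition reads (a setting chosen after seeing the data), and changed no call. The edgeR changes given for single regions kept their sign in 371 of 372 other settings and 251 of 252 fits without a replica. With no member called anywhere, their side of the threshold could not differ. Their sizes were not scored, and several shrank without 1 replica, as given above. The exception was 15q with etoposide in TOP2A, at -0.15, which was 0.0045 by voom and ran from -0.31 to 0.064 without 1 replica; with the replicate block it was -0.16. Within-replica means moved by over 1 SD in 15 of 600 cases, all under TMM scaling. The 0 of 875 without a replica was fixed in advance, since leaving out 1 value cannot move a mean by its SD. The short-to-long balance with etoposide became 0.013 in TOP2A, -0.037 in TOP2B and -0.023 in input when single chromosomes were averaged, and that with mitoxantrone in TOP2A -0.038. Depth limits 9p most, with 4 reads in its poorest library.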
